A study of Mus musculus with 9 samples.

Results

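The laminins and integrins of the mouse heart were examined in mutant right atria, control ventricles and control right atria, as 38 of the 18193 genes measured. The genes were taken by symbol (Lama, Lamb, Lamc, Itga or Itgb followed by a digit, plus Itgal, Itgam, Itgax, Itgav and Itgae). The rule does not use their values, but it was chosen with earlier results of these data known. They comprised 10 laminin chains, 25 integrin subunits and 3 genes, Itgb1bp1, Itgb1bp2 and Itgb3bp, whose symbols fit the pattern but whose products are integrin binding proteins. The mutants were Myh6-cre; COUP-TFIIflox/flox mice, in which Cre recombinase driven by the cardiomyocyte promoter Myh6 acts on floxed alleles of Nr2f2, which encodes the nuclear receptor COUP-TFII. Cells of the atrium other than cardiomyocytes are not targeted by that promoter. The controls, COUP-TFIIflox/flox mice, carried the same floxed alleles without Cre, so Cre itself was present in mutants alone. All animals had a C57BL/6 background and were 2 months old. Total RNA of 3 right atrial samples from mutants, 3 ventricular samples from controls and 3 right atrial samples from controls was hybridised to 9 Affymetrix arrays, and the labels call the replicates biological without saying whether animals were pooled.

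Laminins are cross-shaped trimers of an alpha, a beta and a gamma chain that assemble into the sheet of the basement membrane around each cardiomyocyte, vessel and nerve. Integrins are heterodimers of an alpha and a beta subunit that span the plasma membrane, bind matrix proteins such as laminin, fibronectin or vitronectin outside the cell, and connect to actin through talin and other adaptors inside it. In striated muscle the laminin containing Lama2 is held by the alpha7 beta1 integrin (Itga7 with Itgb1) and by dystroglycan, while the beta2 and beta7 subunits belong to leukocytes.

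Promoters of 3 members that carry the results below are shown, namely Itgb5, which was higher in mutant atria, Itgb8, which was lower in ventricles than in control atria, and Lama5, which was higher in ventricles. The sequences are from RefSeq on GRCm38.p6, run from 250 bases before to 50 bases after the annotated start, and are written 5′ to 3′ on the strand of the gene, with each GC box (GGGCGG or its complement CCGCCC) in capitals.
Itgb5 (chr16:33829415-33829714, plus strand): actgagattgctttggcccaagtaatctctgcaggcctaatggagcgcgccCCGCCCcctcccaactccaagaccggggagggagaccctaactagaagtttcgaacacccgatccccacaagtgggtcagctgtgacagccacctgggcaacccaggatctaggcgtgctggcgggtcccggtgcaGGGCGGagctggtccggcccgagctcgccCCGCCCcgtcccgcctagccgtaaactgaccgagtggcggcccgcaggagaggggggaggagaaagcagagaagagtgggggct
Itgb8 (chr12:119238227-119238526, minus strand): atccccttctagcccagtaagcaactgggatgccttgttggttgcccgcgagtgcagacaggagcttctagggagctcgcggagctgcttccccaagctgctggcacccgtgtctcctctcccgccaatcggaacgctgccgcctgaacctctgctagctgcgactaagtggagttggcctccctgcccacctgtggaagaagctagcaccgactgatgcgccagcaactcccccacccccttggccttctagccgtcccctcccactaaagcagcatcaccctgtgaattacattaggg
Lama5 (chr2:180225810-180226109, minus strand): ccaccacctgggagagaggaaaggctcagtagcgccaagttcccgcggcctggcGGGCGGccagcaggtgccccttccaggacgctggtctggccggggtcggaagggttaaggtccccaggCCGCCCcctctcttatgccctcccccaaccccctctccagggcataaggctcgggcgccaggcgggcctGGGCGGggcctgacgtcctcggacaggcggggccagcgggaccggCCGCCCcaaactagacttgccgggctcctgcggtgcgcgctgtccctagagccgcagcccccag
The Itgb5 promoter held 3 GC boxes, that of Lama5 held 4 and that of Itgb8 held 0. A promoter was matched for 25 of the 38 members, giving 28 promoters. GGGCGG, searched on both strands, was found in 12 of these 28 (42.9%) and in 35.7% of all 32851 promoters. AGGTCA, the nuclear receptor half-site, was searched likewise and was found in 1 of 28, that of Itgb2l, and in 16.3% of all promoters. A direct repeat of AGGTCA with any 1 base (N) between both copies, which contains the half-site, was found in 0 of 28 and in 0.0396% of all promoters. These counts describe letters in a short window and say nothing of binding.

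Levels are given as the log2 of the deposited intensity, averaged over the 3 arrays of a group (± SD). Differences between groups are on the same log2 scale (± SE) and were fitted with limma across the 9 arrays together. A gene is called where its adjusted p lies under 0.05, with adjustment over all 18193 genes. Levels of different genes come from different probes and are not set against each other. A gene is called dim where its mean over 9 arrays lay among the lowest 40% of all genes, that is below 6.58, which held for 11 of the 38 members.

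The median intensity per array was between 80.9 and 83.4 on the linear scale. Nr2f2, the deleted gene, averaged 6.75 ± 0.12 in mutant atria and 7.49 ± 0.19 in control atria (difference -0.74 ± 0.15, adjusted p = 0.0109), and 5.68 ± 0.32 in ventricles. Whether its probe set lies in the deleted part is not given in the sources used here. The chamber labels were checked with Myl7, the atrial myosin light chain, at 13.56 ± 0.78 in mutant atria, 6.87 ± 1.30 in ventricles and 14.91 ± 0.03 in control atria, and with its ventricular counterpart Myl2, at 14.86 ± 0.08, 15.01 ± 0.01 and 11.04 ± 0.58 in the same groups. The mutant atria thus carried both transcripts at high levels. The control atria differed from the other groups in liver and mesothelial transcripts. The mean level of 14 hepatocyte markers was 5.15 to 5.20 in mutant atria, 5.09 to 5.14 in ventricles and 7.13 to 9.81 in control atria, and all 14 were lower in mutants and in ventricles than in control atria. The 13 mesothelial markers averaged 7.95 to 8.13 in mutant atria, 6.61 to 6.92 in ventricles and 9.39 to 9.63 in control atria, and all 13 were likewise lower in both. The 3 measured Y-linked genes averaged 3.73 to 8.84 in mutant atria, 3.78 to 3.85 in ventricles and 5.22 to 8.81 in control atria. Xist, which marks female cells, was at 12.48, 6.73 and 6.48 in mutant atria. It was at 11.84, 11.87 and 11.80 in ventricles and 12.73, 8.55 and 10.91 in control atria. All 3 ventricles thus had high Xist and low Y-linked levels, while the atria varied, so sex was not balanced between chambers. Control atrium replicate 3 carried both Xist (10.91) and Y-linked transcripts (8.33). Replicate 2 had Y-linked genes at 8.81 and Xist at 8.55, above the 6.73 and 6.48 of mutant replicates 2 and 3. Replicate 1 had Xist at 12.73 and Y-linked genes at 5.22, above the 3.73 of mutant replicate 1. The 3′ minus 5′ difference of Gapdh probe sets, a sign of RNA quality, was 0.214 to 0.304 in mutant atria, 0.153 to 0.227 in ventricles and 0.345 to 0.364 in control atria. Its part in the results was not tested. In such tissue RNA, fewer cells of a type and less RNA per cell cannot be told apart.

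In mutant right atria 3 of the 38 members were higher than in control right atria and 0 were lower. They were Itgb5, Itga7 and Itgb1bp2, with rises of 1.34- to 1.48-fold. The share called, 7.89%, compares with 17.5% of all genes tested. Higher calls made up 7.76% of all genes and lower calls 9.79%. At an unadjusted limma p under 0.05, 8 members were higher and 1 was lower, or 21.1% and 2.63% of the members, against 15.8% and 16.5% of all genes. The median difference of the members was 0.08, against 0.03 over all genes. The groups did not overlap in 9 of the 38 members, against 37.8% of all genes.

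**Figure D1:**
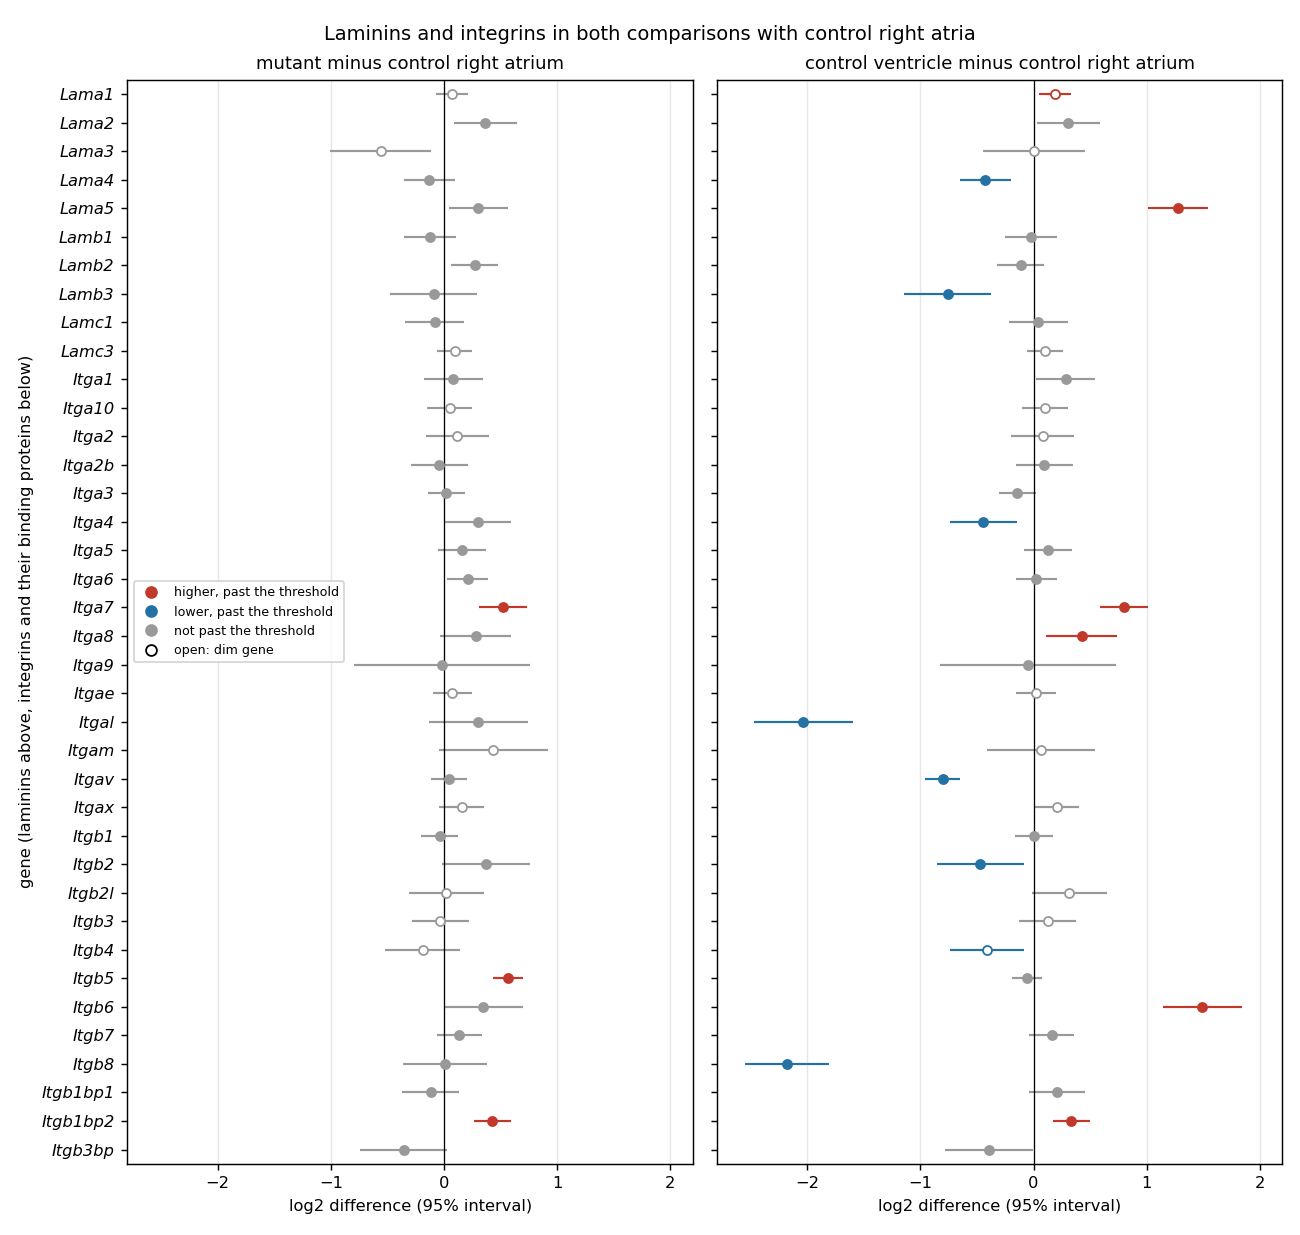
Log2 difference with its 95% interval (horizontal axis) for each of the 38 members (rows), in mutant minus control right atria on the left and in control ventricles minus control right atria on the right. Red marks higher and blue lower past the threshold, grey marks members that were not called, and open symbols mark dim genes. The 3 red points on the left are Itga7, Itgb5 and Itgb1bp2. The right panel has 6 red and 8 blue points.

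Itgb5, the beta5 subunit that pairs with alphaV in a receptor for vitronectin, had the largest difference among these 3 genes. It measured 11.48, 11.36 and 11.37 in mutant atria, 10.75, 10.78 and 10.80 in ventricles and 10.79, 10.85 and 10.85 in control atria. All 3 mutant arrays lay above all 6 control arrays, and both control tissues lay close together. Itgb5 was higher by 0.57 ± 0.06 in mutant than in control atria (1.48-fold, adjusted p = 0.000299) and by 0.62 ± 0.06 than in ventricles (1.54-fold, adjusted p = 5.34e-05). The ventricle minus control atrium difference was -0.06 ± 0.06 (95% interval -0.19 to 0.07, adjusted p = 0.424).

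Itgav, the alphaV subunit with which beta5 pairs, did not show this pattern. Its levels in mutant atria lay between 11.13 and 11.36, against 11.15 to 11.23 in control atria, and overlapped (difference 0.04 ± 0.07, 95% interval -0.11 to 0.20, adjusted p = 0.699). The other subunits that pair with alphaV were not called in mutants either. Itgb8 differed by 0.01 ± 0.17 (95% interval -0.36 to 0.38) and Itgb6 by 0.35 ± 0.16 (adjusted p = 0.155).

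Itga7, the alpha7 subunit of the muscle laminin receptor, measured 9.32, 9.34 and 9.43 in mutant atria, 9.55, 9.54 and 9.82 in ventricles and 8.74, 8.98 and 8.80 in control atria. The 3 groups did not overlap, and the mutant atria lay between both control tissues. It was higher by 0.52 ± 0.09 in mutant than in control atria (1.44-fold, adjusted p = 0.00569). Ventricles exceeded control atria by 0.80 ± 0.09 (1.74-fold, adjusted p = 0.000113), and mutant atria minus ventricles came to -0.27 ± 0.09 (adjusted p = 0.0504). The mutant and ventricle comparisons share the same 3 control atria. Of 13 smooth muscle and pericyte markers, 6 were higher and 1 lower in mutant than in control atria. In ventricles 10 of them were higher and 2 lower. Of all genes 17.5% were called in mutant minus control atria and 52.8% in ventricles minus control atria. Cnn1 was lower in both comparisons (-3.38 ± 0.18 and -3.12 ± 0.18). The 13 markers averaged 9.51 to 9.64 in mutant atria, 9.87 to 10.10 in ventricles and 9.27 to 9.44 in control atria. Of 11 cardiomyocyte markers, 3 were higher and 1 lower in mutant atria, and 3 higher and 2 lower in ventricles. The part of these cell types in the result was not tested.

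Itgb1, the beta1 subunit that completes the alpha7 beta1 receptor, was at 10.64, 10.42 and 10.49 in mutant atria, 10.52, 10.54 and 10.62 in ventricles and 10.48, 10.62 and 10.57 in control atria. The arrays of the 3 groups overlapped throughout. The difference was -0.04 ± 0.07 in mutant minus control atria (95% interval -0.21 to 0.13, adjusted p = 0.745) and 0.00 ± 0.07 in ventricles minus control atria (95% interval -0.17 to 0.17, adjusted p = 0.991). Itgb1bp2 encodes melusin, a muscle protein that binds the cytoplasmic tail of beta1, and it is a member by its symbol alone. It lay between 12.21 and 12.33 in mutant atria, 12.11 and 12.25 in ventricles and 11.73 and 11.92 in control atria. Mutant atria and ventricles overlapped, and both were above control atria. The rise was 0.42 ± 0.07 in mutant atria (1.34-fold, adjusted p = 0.00435) and 0.33 ± 0.07 in ventricles (1.26-fold, adjusted p = 0.00427).

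**Figure D2:**
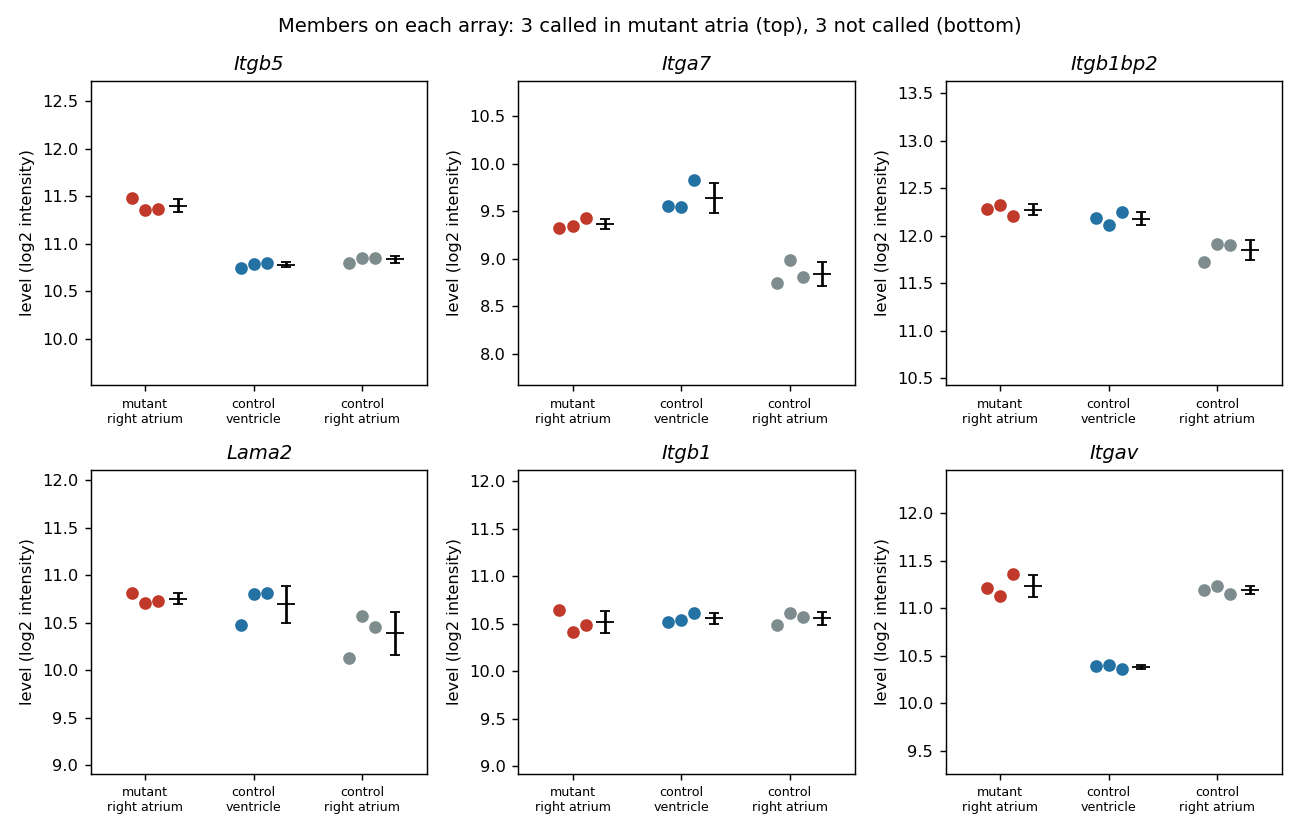
Level (log2 intensity, vertical axis) of 6 members on each array, with 1 dot per array and the group mean ± SD as a black bar, over the same span of 3.2 log2 units in each panel. In Itgb5, Itga7 and Itgb1bp2 the mutant dots lie above the control atrial dots. In Lama2 they also lie above, without passing the threshold, and in Itgb1 and Itgav they overlap.

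Of the 10 laminin chains 0 were called between mutant and control atria by limma, against 17.5% of all genes. At an unadjusted p under 0.05, 3 were higher and 1 was lower, against 15.8% and 16.5% of all genes. So few chains do not set the laminins apart from all genes. Lama2, the alpha chain of the main muscle laminin, measured 10.82, 10.71 and 10.73 in mutant atria, 10.47, 10.80 and 10.82 in ventricles and 10.13, 10.58 and 10.46 in control atria. The mutant arrays were all above the control atrial arrays, which were spread wider than the mutants. The difference of 0.37 ± 0.13 did not pass (95% interval 0.08 to 0.65, adjusted p = 0.0748). Lamb2, a beta chain of muscle and vascular laminins, differed by 0.27 ± 0.09 (adjusted p = 0.0742), and Lama5 by 0.30 ± 0.12 (adjusted p = 0.107). Lama3, a dim alpha chain known from epithelia, differed by -0.56 ± 0.20 (adjusted p = 0.0853). Lamb2 passed without ventricle replicate 1 (0.27, adjusted p = 0.0440) and Lama5 without mutant replicate 1 (0.41, adjusted p = 0.0364). Over the 35 members that were not called, differences ran from -0.56 to 0.44 and the half-width of the 95% interval had a median of 0.26.

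The leukocyte integrins (Itgal, Itgam, Itgax, Itgae, Itgb2, Itgb7, Itgb2l and Itga4) held 0 of 8 calls between mutant and control atria. At an unadjusted limma p under 0.05, 1 was higher, against 15.8% of all genes. The median difference of the 8 was 0.23. Itgb2, the beta2 subunit of leukocytes, averaged 8.02 ± 0.23 in mutant atria and 7.65 ± 0.16 in control atria (difference 0.37 ± 0.17, adjusted p = 0.172). Where 17.5% of all genes were called, 7 of 15 myeloid markers were higher and 0 lower in mutant atria. Their mean level was 9.16 to 9.70 in mutant atria and 8.88 to 8.99 in control atria.

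The calls of Itgb5, Itga7 and Itgb1bp2 held without each array in turn, with lowest values of 0.53, 0.47 and 0.36. They include the arrays of control atria, which carried the liver transcripts. With the mean hepatocyte level as a covariate, Itgb5 was at 0.51 (adjusted p = 0.234), Itga7 at 0.51 (adjusted p = 0.491) and Itgb1bp2 at 0.25 (adjusted p = 0.677). This covariate separates the control atria from the other arrays. With it 0.555% of all genes were called, and the median SE over all genes was 0.202, against 0.0879 without it. With the Y-linked covariate all 3 calls remained.

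Between control chambers the members differed more widely. In ventricles 6 of 38 members were higher and 8 were lower than in control atria, a share of 36.8% against 52.8% of all genes tested. Higher calls made up 29.2% of all genes and lower calls 23.6%. The median size of the difference, without its sign, was 0.20 for the members and 0.26 for all genes. The groups did not overlap in 17 members, against 59.7% of all genes. With each array centred on its median, which moved the median difference of all genes by 0.14, the members split into 15 higher and 5 lower. These are 39.5% and 13.2% of the members, against 48.4% and 16.9% of all genes under that scaling. Of the 14 called members, Itgb6 and Lama5 had the largest rises and Itgb8 and Itgal the largest falls.

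Lama5, the alpha5 chain of laminins in vascular and epithelial basement membranes, measured 7.79, 8.08 and 8.16 in mutant atria, 8.79, 9.03 and 9.14 in ventricles and 7.63, 7.70 and 7.80 in control atria. All ventricles exceeded all atria of either genotype. It was higher in ventricles by 1.28 ± 0.12 than in control atria (2.42-fold, adjusted p = 2.13e-05). Mutant atria minus ventricles came to -0.97 ± 0.12 (adjusted p = 0.000212). Lama4, the alpha4 chain of endothelial laminins, went the other way and fell by 0.43 on the log2 scale in ventricles (SE 0.10, adjusted p = 0.00628). Its levels were 9.92 to 10.02 in ventricles and 10.36 to 10.46 in control atria, without overlap. With the Y-linked covariate its difference was -0.25 and did not pass (adjusted p = 0.0967). Where 52.8% of all genes were called, 2 of 12 endothelial markers were higher and 6 lower in ventricles. These markers had a mean level of 9.30 to 9.46 in ventricles and 9.74 to 9.78 in control atria. Their part in the laminin values was not tested.

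Lamb3, a beta chain of epithelial laminin, was also lower in ventricles. It averaged 8.31 ± 0.24 in ventricles and 9.07 ± 0.03 in control atria (difference -0.76 ± 0.17, adjusted p = 0.00505). Itgb4, a dim subunit of the epithelial laminin receptor, was lower by a difference of -0.41 ± 0.15 (adjusted p = 0.0401). All 13 mesothelial markers, which include epithelial keratins, were lower in ventricles too, with a median difference of -2.87, and their part in these calls was not tested.

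**Figure D3:**
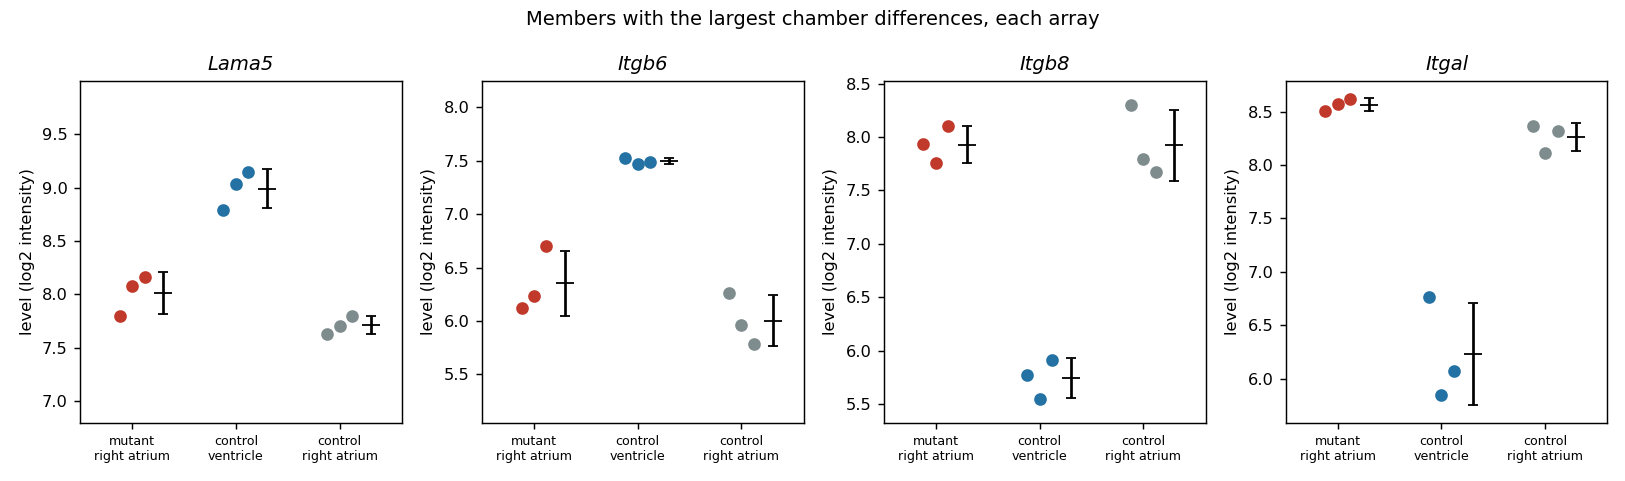
Level (log2 intensity, vertical axis) of Lama5, Itgb6, Itgb8 and Itgal on each array, with 1 dot per array and the group mean ± SD as a black bar, over a span of 3.2 log2 units in each panel. Ventricles lie above both atrial groups in Lama5 and Itgb6 and below both in Itgb8 and Itgal, while mutant and control atria are close.

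Itgb6 and Itgb8, beta subunits that pair with alphaV in receptors able to activate latent TGF-beta, differed in opposite directions. Itgb6 measured 6.12, 6.24 and 6.70 in mutant atria, 7.53, 7.47 and 7.49 in ventricles and 6.26, 5.97 and 5.79 in control atria. Every ventricle lay above every atrium (ventricle minus control atrium 1.49 ± 0.16, 2.81-fold, adjusted p = 4.9e-05). Itgb8 measured 7.93, 7.75 and 8.10 in mutant atria, 5.77, 5.55 and 5.91 in ventricles and 8.30, 7.80 and 7.67 in control atria. It was lower in all ventricles (difference -2.18 ± 0.17, a 4.52-fold difference, adjusted p = 6.75e-06), and the atria of both genotypes overlapped. Itgav itself lay between 10.36 and 10.40 in ventricles and between 11.15 and 11.23 in control atria (difference -0.80 ± 0.07, a 1.75-fold difference, adjusted p = 1.56e-05).

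Itgal, the alphaL subunit of the lymphocyte adhesion receptor LFA-1, measured 8.51, 8.57 and 8.62 in mutant atria, 6.76, 5.85 and 6.07 in ventricles and 8.36, 8.11 and 8.32 in control atria. The ventricles were lowest and most spread. The ventricle minus control atrium difference was -2.04 ± 0.19 (a 4.1-fold difference, adjusted p = 2.85e-05). Itga4 (-0.44 ± 0.13, adjusted p = 0.0181) and Itgb2 (-0.47 ± 0.17, adjusted p = 0.0447) were the other leukocyte integrins called lower in ventricles, and 0 of the 8 were called higher. Of these 8, 37.5% were called, against 52.8% of all genes. Of all genes 29.2% were called higher and 23.6% lower there. Among myeloid markers 8 of 15 were lower and 0 higher in ventricles, at a mean level of 8.06 to 8.72 in ventricles and 8.88 to 8.99 in control atria. Of 10 lymphocyte markers, 8 of them dim, 3 were higher and 3 lower. The part of either cell type in these differences was not tested.

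Beside Itga7, Itgb1bp2, Lama5 and Itgb6, the ventricles were called higher in Itga8, the alpha8 subunit that binds nephronectin (0.43 ± 0.14, adjusted p = 0.0282), and in the dim Lama1 (0.19 ± 0.06, adjusted p = 0.0293). Of the 14 chamber calls, 9 held without each array in turn. The other 5 calls did not. The call of Itga4 did not hold without control atrium replicate 1 (-0.36, adjusted p = 0.0694) or 3 (-0.40, adjusted p = 0.0534) and ventricle replicate 2 (-0.38, adjusted p = 0.0614) or 3 (-0.39, adjusted p = 0.0599). That of Itga8 did not hold without control atrium replicate 2 (0.28, adjusted p = 0.0941), ventricle replicate 1 (0.38, adjusted p = 0.0861) or ventricle replicate 2 (0.45, adjusted p = 0.0520). Lama1 was lost without control atrium replicate 1 or 2 and ventricle replicate 1 or 2, with adjusted p up to 0.0891. Itgb2 was lost without 7 of the 9 arrays, among them ventricle replicate 2 (-0.27, adjusted p = 0.136), and Itgb4 without 6 of the 9, among them control atrium replicate 2 (-0.27, adjusted p = 0.140). Of the 24 members not called, 8 passed without some array, namely Itga1, Itga2b, Itgax, Itgb1bp1, Itgb2l, Itgb3bp, Itgb7 and Lama2. Lama2 was called higher in ventricles without control atrium replicate 2 (0.40, adjusted p = 0.0358) or ventricle replicate 1 (0.42, adjusted p = 0.0217), against 0.31 ± 0.13 (adjusted p = 0.063) with all arrays. With the hepatocyte covariate, 4 of the 14 calls remained, namely Itgb6 (2.04, adjusted p = 0.0101), Itgb8 (-1.46, adjusted p = 0.0325), Itgal (-2.04, adjusted p = 0.0442) and Itgav (-0.74, adjusted p = 0.0390). Of all genes 7.84% were called with that covariate, against 52.8% without it. With the mean level of the Y-linked genes as a covariate, 8 of the 14 calls remained, and those of Itga4, Itga8, Itgb2, Itgb4, Lama1 and Lama4 were lost. Itga8 was then at 0.15 (adjusted p = 0.397), and 40.8% of all genes were called.

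Mutant atria differed from control ventricles in 12 members, 9 higher and 3 lower, a share of 31.6% against 32.7% of all genes tested. Higher calls made up 16.0% of all genes and lower calls 16.7%. With median centring, which moved the median of all genes by -0.10, 8 members were higher and 6 lower. These are 21.1% and 15.8% of the members, against 12.3% and 32.3% of all genes under that scaling. The arrays did not overlap in 16 members, against 47.4% of all genes. These groups share neither genotype nor chamber, but both lacked the liver transcripts of the control atria, with 1 of 14 hepatocyte markers higher and 0 lower. The members higher in mutant atria were Itgal (2.34 ± 0.19, 5.06-fold, adjusted p = 2.54e-05), Itgb8 (2.18 ± 0.17, 4.54-fold, adjusted p = 1.5e-05), Itgav (0.85 ± 0.07, adjusted p = 2.39e-05), Itgb2, Itga4, Lamb3, Itgb5, Lamb2 and Lama4. Itgb6 (-1.14 ± 0.16, adjusted p = 0.000447), Lama5 and the beta1 binding protein Itgb1bp1 (-0.33 ± 0.11, adjusted p = 0.0499) were lower. Of these 12 calls 9 held without each array in turn. Lama4 (0.29 ± 0.10, adjusted p = 0.0498) was lost without 8 of the 9 arrays, with a lowest value of 0.19 without mutant replicate 2. Itgb1bp1 was also lost without 8 of the 9, with -0.19 without mutant replicate 1, and Lamb3 was lost without ventricle replicate 3 (0.58, adjusted p = 0.0535). Of the 26 members not called, 3 passed without some array. Itga7 was then lower without control atrium replicate 2 (-0.27, adjusted p = 0.0458), Lama3 lower without control atrium replicate 3 (-0.56, adjusted p = 0.0300) and Itga3 higher without mutant replicate 2 (0.23, adjusted p = 0.0470). Itga7 also passed in 5 of 9 other settings and Lama3 in 5 of 8, not counting the hepatocyte covariate. With the Y-linked covariate the calls of Lama4 (0.13, adjusted p = 0.398) and Lamb2 (0.37, adjusted p = 0.0628) were lost.

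The 38 members were represented by 83 probe sets, 22 of them by several. Itgb5 had 4, and each of them was higher in mutant than in control atria, with differences of 0.57 to 0.68 in a fit over all 34945 probe sets. In ventricles minus control atria its probe sets ran from -0.19 to 0.08, and 1 was called lower (-0.19, adjusted p = 0.0390). Lama5 was higher in ventricles by all 3 of its probe sets (1.28, 0.75 and 0.46), Itgb6 by both (1.49 and 0.30), and Lama4 was lower by both (-0.43 and -0.46). Apart from Itgb5 in ventricles, those members thus had the same direction in each probe set. Itgal and Itgav did not. The dimmer probe set of Itgal differed by 0.10 in ventricles (adjusted p = 0.528), and of the 4 dimmer probe sets of Itgav 1 was higher in ventricles (0.19, adjusted p = 0.0301) and 3 were not called. With the mean of all probe sets per gene, ventricles minus control atria came to -0.97 for Itgal, -0.20 for Itgav, 0.90 for Itgb6 and 0.83 for Lama5, and all 4 still passed. In mutant atria minus ventricles, Itgav then came to 0.17 (adjusted p = 0.0895) and no longer passed. None of the 6 probe sets of Itgb1 was called between mutant and control atria.

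**Figure D4:**
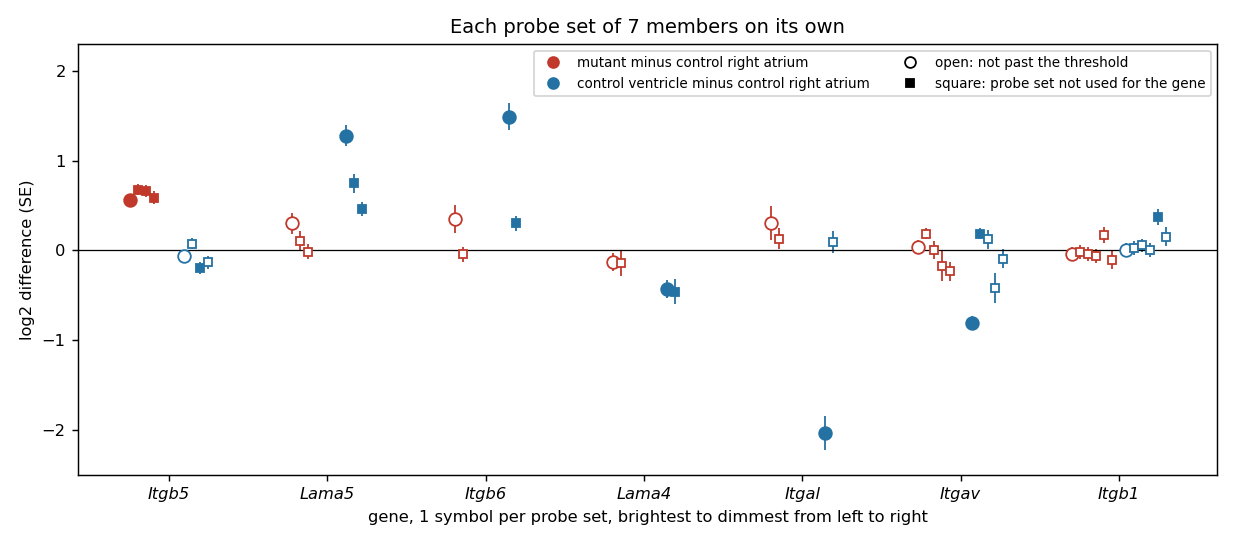
Log2 difference ± SE (vertical axis) of every probe set of 7 members, ordered from bright to dim within a gene, in mutant minus control right atria (red) and in control ventricles minus control right atria (blue). Circles mark the probe set used for the gene, squares the others, and open symbols those that were not called. All 4 red symbols of Itgb5 are filled and lie above 0, and for Itgal and Itgav the large fall in ventricles is seen in the brightest probe set alone.

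Of the 38 members 21 were called in none of the 3 comparisons, 9 of them dim. This is 55.3% of the members, against 41.2% of all genes. Over the 12 that were not dim, differences lay between -0.39 and 0.37. Among them were Lamb1 and Lamc1, the beta1 and gamma1 chains found in most laminins. Lamc1 averaged 9.65 ± 0.22 in mutant atria, 9.77 ± 0.15 in ventricles and 9.73 ± 0.06 in control atria, and Lamb1 averaged 10.45 ± 0.12, 10.55 ± 0.17 and 10.58 ± 0.11 in the same groups. Both chains thus overlapped between all groups. Itga6, a laminin receptor subunit of many cell types, averaged 10.35 ± 0.13 in mutant atria, 10.16 ± 0.07 in ventricles and 10.14 ± 0.09 in control atria (mutant minus control atrium 0.21 ± 0.08, adjusted p = 0.111). Itga1, a collagen receptor subunit, averaged 8.46 ± 0.21 in mutant atria, 8.67 ± 0.02 in ventricles and 8.38 ± 0.18 in control atria (ventricle minus control atrium 0.29 ± 0.12, adjusted p = 0.0637). Itga5, the fibronectin receptor subunit, differed by 0.16 ± 0.10 in mutant minus control atria (adjusted p = 0.280). Itga2b, the platelet subunit that pairs with the dim Itgb3, differed by -0.04 ± 0.11 there (adjusted p = 0.828). Of 6 platelet markers, 5 of them dim, 1 was higher and 0 lower in mutant atria, where 17.5% of all genes were called.

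The partners of laminins in the basement membrane include collagen IV, nidogen, perlecan and agrin. Of 18 such genes 3 were higher and 0 lower in mutant than in control atria, where 17.5% of all genes were called. Their median difference was 0.24, against 0.03 over all genes. Col4a3 and Col4a4, chains of the collagen IV network, were higher by 0.66 ± 0.15 (adjusted p = 0.0152) and 0.54 ± 0.16 (adjusted p = 0.0449), and Hspg2, which encodes perlecan, by 0.34 ± 0.08 (adjusted p = 0.0222). The chamber comparison ran differently, with 4 of the 18 higher and 9 lower in ventricles, where 52.8% of all genes were called. The median was -0.21, against 0.07 over all genes. Fbln1, fibulin-1, fell by 2.19 there (SE 0.15) and Nid2, nidogen-2, by 0.64. Against ventricles, mutant atria were higher in 10 of the 18 and lower in 0. Of all genes 16.0% were called higher and 16.7% lower there. Of 12 fibroblast markers 2 were higher and 0 lower in mutant than in control atria, where 17.5% of all genes were called. In ventricles 1 was higher and 10 were lower, where 52.8% of all genes were called. Their mean levels were 11.25 to 11.27 in mutant atria, 10.22 to 10.49 in ventricles and 11.00 to 11.10 in control atria. Their part was not tested.

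**Figure D5:**
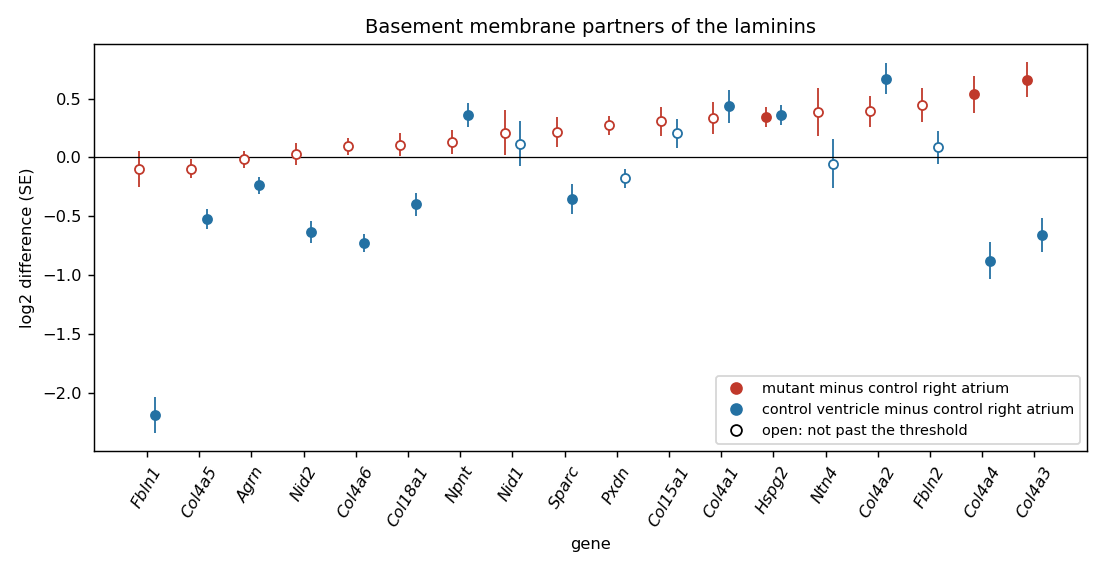
Log2 difference ± SE (vertical axis) of 18 basement membrane genes (horizontal axis), in mutant minus control right atria (red) and in control ventricles minus control right atria (blue), with open symbols for genes that were not called. The 3 filled red points are Hspg2, Col4a4 and Col4a3, and the lowest blue point, at -2.19, is Fbln1.

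Among 22 other integrin ligands 2 were higher and 6 lower in mutant than in control atria, with a median of -0.13. Of all genes 17.5% were called in that comparison. Thbs4, a thrombospondin of the matrix, was at 12.43, 11.75 and 12.14 in mutant atria, 8.14, 8.08 and 7.92 in ventricles and 6.96, 6.87 and 6.95 in control atria. All mutant arrays were far above both control tissues (mutant minus control atrium 5.18 ± 0.15, adjusted p = 1.93e-07). Emilin1, an elastic fibre protein bound by alpha4 and alpha9 integrins, was higher by 0.58 ± 0.11 (adjusted p = 0.00707). Lower calls included Fga, a fibrinogen chain that also stands among the hepatocyte markers (-3.50 ± 0.66, adjusted p = 0.00700). In ventricles 4 of the 22 were higher and 12 lower than in control atria, with a median of -0.36, where 52.8% of all genes were called. Vcam1, the endothelial ligand of alpha4 beta1, fell by 1.99 and Fn1, fibronectin, by 1.05.

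Dystroglycan and the dystrophin complex form the second laminin receptor of muscle. Of 16 measured genes 1 was higher and 3 were lower in mutant than in control atria, with a median of 0.09. Of all genes 17.5% were called in that comparison. Cav3, the caveolin of striated muscle, was at 10.09 on all 3 mutant arrays and at 9.64 to 9.77 in control atria (0.39 ± 0.06, adjusted p = 0.00249). Utrn, the dystrophin relative utrophin, and Sgce, epsilon-sarcoglycan, each fell by 0.41, and Dmd, dystrophin, fell by 0.33. In ventricles 7 were higher and 4 lower, where 52.8% of all genes were called. Among 30 adaptors and kinases of integrin adhesions, which count Itgb1bp1 and Itgb1bp2 again, 4 were higher and 4 lower in mutant atria, with a median of -0.04. Vcl, vinculin, was higher by 0.29, while Tns3, a tensin, fell by 0.57 and Cd9, a tetraspanin that associates with integrins, fell by 0.54. In ventricles 6 of the 30 were higher and 13 lower than in control atria, with a median of -0.15. Of all genes 52.8% were called there, and 17.5% in mutant minus control atria. Utrn, Sgce, Dmd, Vcl, Tns3 and Cd9 all passed the threshold in mutant atria.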

How the data were processed

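Transcript levels were measured in 9 samples of mouse heart on Affymetrix arrays after 3′ IVT Express labelling, per the labels' protocols. The deposited unit is intensity on a linear scale, 1 value per probe set, made by the authors with RMA, per the submitters' processing notes, whose version and settings are not given in the sources used here. RMA equalises the distributions of arrays, so a shift common to most genes cannot be seen. From these, log2 was taken. The table held 45101 probe sets. Left out were 64 controls, 932 that name more than 1 gene and 9160 that name none, leaving 34945 of 18193 genes, named by the platform annotation. Where a gene had several, the brightest by its mean on the 9 arrays stood for it.

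All arrays entered a limma 3.58.1 model (R 4.3.3, lmFit and eBayes, 6 residual and 3.48 prior degrees of freedom) with a mean per group, and gave 3 comparisons with two-sided p-values, adjusted by Benjamini-Hochberg across the genes. Where the spread between samples is technical, p-values measure that alone, as the labels do not say that samples came from single animals. Members and lists were chosen with earlier results of these data known, and lists are described by counts and medians only. All members may be named. Values on each array are given for Lama2, Itgb1, Itga7 and for called members with a difference of at least 0.5 in mutant minus control atria or at least 1 in another comparison, and up to 4 genes of smallest p are named per list. Myl2 and Myl7 were named outside this rule, as chamber markers with known values, and Xist as a marker of sex. The array values of Xist and Thbs4 were added after they were seen. On simulated mutant minus control atrium data of 18193 genes, 70 of 100 genes changed 1.5-fold and 95 of 100 changed 2-fold were recovered, with 8 false calls. Only these genes were changed there, whereas 17.5% of all genes were called in the data, so the recovery need not apply to them. Arrays have no read depth, and their number limits the precision. Alternatives were another scaling, probe set rule, filter, variance model or covariate, the replicate number as a block, and leaving out each array.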

Additional observations from a re-analysis of the deposited data

How the results depend on the processing

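Counts of called members are given here as higher and lower in the order of the comparison. In mutant minus control right atria, where 3 members were higher and 0 lower, the higher count was 7 with array weights, 0 with the hepatocyte covariate and 7 over single probe sets, and the lower count was 1 over single probe sets. In ventricles minus control atria, where 6 were higher and 8 lower, the higher count was 15 with median centring, 10 with the mean of all probe sets, 1 with the hepatocyte covariate and 16 over single probe sets. The lower count there was 5 with median centring, 3 with the hepatocyte covariate, 4 with the Y-linked covariate and 13 over single probe sets. In mutant atria minus ventricles, where 9 were higher and 3 lower, the higher count was 15 over single probe sets, and the lower count was 6 with median centring, 6 with the mean of all probe sets and 7 over single probe sets. Single probe sets outnumber the genes. The share of all genes called is not given here for array weights, single probe sets and the mean of all probe sets. Counts in those settings are not read as results about the members. Of all genes 0.555% and 7.84% were called in the first and second comparison with the hepatocyte covariate. In the second, 48.4% were higher and 16.9% lower with median centring, and 40.8% were called with the Y-linked covariate. In the third, 32.3% were lower with median centring. The cause of the shifts was not tested. Leaving out 1 array gave 3 to 4 higher and 0 lower in the first comparison, 5 to 9 and 5 to 7 in the second, with 5 lower without ventricle replicate 2, and 7 to 9 and 2 to 3 in the third. With the mean of all probe sets, Itga3 (0.20), Itga5 (-0.29) and Lamb1 (0.22) reversed in ventricles minus control atria, against -0.14, 0.13 and -0.02, as their probe sets disagreed. In that comparison with the hepatocyte covariate, Lama5 was at 1.05 (adjusted p = 0.0627) and Itga7 at 0.79 (adjusted p = 0.0884). Of 711 values of single members per comparison, 697, 626 and 663 kept the side of the threshold. Called members among these also kept their direction, while members that were not called could change sign. With the replicate number as a block, 4 were higher and 1 lower in mutant minus control atria, Lama3 being the lower (-0.56, adjusted p = 0.034), with 7 and 6 in ventricles minus control atria and 9 and 3 in mutant atria minus ventricles. Deviations of equally numbered mutant and control atria correlated at 0.125, 0.0512 and 0.0226. These 3 values are too few to decide whether equally numbered samples share more than a number.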

Other observations

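Some members gave different values from their other probe sets. Itga1 differed by 0.29 in ventricles minus control atria by the brighter probe set and by 1.30 (adjusted p = 0.000939) by the dimmer. Itga5 differed by 0.13 in its brightest probe set and by -0.58 and -0.71 in 2 others. Itga3 differed by -0.14 in its brightest and by 0.40 and 0.35 in its others. In mutant minus control atria, a dim probe set of Itgb3 differed by -0.44 (adjusted p = 0.0201), against -0.03 in the brighter, and a dim probe set of Lamb1 by 0.43 (adjusted p = 0.0300), against -0.13 in the brightest. Adjusted p-values in this paragraph are from limma over all 34945 probe sets.

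Itga9, the alpha9 subunit, had the widest 95% interval of the 38 members in each comparison, with a half-width of 0.78. It measured 7.57, 8.73 and 8.55 in mutant atria, 7.91, 8.997 and 7.85 in ventricles and 8.14, 8.47 and 8.30 in control atria. The groups overlapped.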
